A study of Homo sapiens with 6 samples.

Results

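The genes that differed between a pair of siRNAs against the same fusion transcript were described in SU-CCS-1, a line established from a clear cell sarcoma and driven by the EWSR1::ATF1 fusion (EA1). Of the 6 RNA-seq libraries of this line, 4 were chosen by their labels, 2 transfected with EA1 siRNA 1 (siEA1-1) and 2 with EA1 siRNA 2 (siEA1-2), and the other 2, transfected with a negative control siRNA (siNeg1), served to place both against untargeted cells. All cells were of 1 line, and per the methods they were transfected with 5 pmol of siRNA for 48 h. The methods name 1 siRNA against EA1, whereas the labels list 2, and neither gives the target sites. Nothing says that the replicates came from separate cultures, so the p values measure the spread between these libraries, which may be technical. In bulk RNA, fewer cells of a type and less RNA per cell cannot be told apart.

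EA1 joins the N-terminal part of EWSR1, a strong transcriptional activator, to the DNA-binding basic leucine zipper of ATF1, a member of the ATF/CREB family that binds cyclic AMP response elements. It is the defining alteration of clear cell sarcoma, a tumor with melanocytic features. An siRNA guides the RNA-induced silencing complex to a matching transcript for cleavage, and it can also lower other transcripts that match its seed, so pairs of siRNAs against 1 target are commonly compared.

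The libraries held between 5942808 and 7599305 counts, and 3 counts, taken as the smallest level told from 0, corresponded to 0.395 to 0.505 CPM, counts scaled to one library total, a floor that covers counting error only. Of the 9 clear cell sarcoma and melanocytic markers, SOX10 stood at 787 to 955 CPM of the library total and PMEL at 1068 to 7343 CPM, whereas MLANA reached only 4.04 CPM. The summed level of these markers was 9703 to 9841 CPM with EA1 siRNA 1 and 8542 to 12452 CPM with EA1 siRNA 2. Of 6 fibroblast markers 2 were measured, and their sum was 8.89 to 12.1 CPM with EA1 siRNA 1 and 12.9 to 21.7 CPM with EA1 siRNA 2, and the part of this in any result was not tested. Markers of keratinocytes summed to at most 1.65 CPM, those of endothelium to at most 2.95 CPM, and LYZ, the single immune marker measured, to at most 6.58 CPM.

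The EA1 siRNA 2 libraries were the least alike of the replicate pairs. Across genes, which are not independent replicates, their log2 CPM correlated at 0.977, against 0.983 for EA1 siRNA 1 and 0.982 for control. EA1 siRNA 2 replicate 2 correlated at 0.978 with each EA1 siRNA 1 library, no lower than with its own replicate. On the first principal component, which held 69.0% of the variance, this library lay nearer to the control libraries (24.4) than the other knockdown libraries did (37.3 to 41.0), with controls at -70.9 and -69.7. EA1 siRNA 2 replicate 1 lay alone on the second component. The main counts and the gene groups described at length are therefore given with and without each library.

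Both EA1 siRNAs lowered ATF1 to a like level. ATF1 (ENSG00000123268, chromosome 12 from 50763710 to 50821162 of hg38) stood at 82.2 and 87.4 CPM in control, 21.2 and 20.3 CPM with EA1 siRNA 1, and 21.7 and 22.3 CPM with EA1 siRNA 2. CPM of single genes here and below are per library size scaled by the TMM method, and ATF1 counts do not separate the fused from the intact transcript. Every knockdown library lay far below both controls, and the EA1 siRNA 1 libraries lay slightly below those of EA1 siRNA 2. The log2 difference, taken throughout as EA1 siRNA 1 minus EA1 siRNA 2, was -0.09 with a 95% interval from -0.39 to 0.22 (adjusted p = 0.817 by the edgeR quasi-likelihood test, Benjamini-Hochberg adjusted). For EWSR1, the other partner of the fusion, it was -0.07 with an interval from -0.31 to 0.18 (adjusted p = 0.820 in the same edgeR test). These intervals bound the difference and do not show that the levels were equal.

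At this like level of ATF1, 326 of 14571 genes tested differed between the EA1 siRNAs at an adjusted p under 0.05 by this test. With EA1 siRNA 1, 116 genes were higher (0.796% of genes tested) and 210 were lower (1.44%). The median log2 difference was 0.74 among the genes that were higher and -0.70 among those that were lower, and 26 and 32 of them differed at least 2-fold. The median over all genes tested was -0.01. This main fit did not use the replicate number. With the replicate number as a block, 323 genes were higher (2.22%) and 530 lower (3.64%), and these held all 326. The counts moved with single libraries. Without EA1 siRNA 1 replicate 2 only 13 genes were higher and 20 lower, and without EA1 siRNA 1 replicate 1 the counts were 40 and 45. Without EA1 siRNA 2 replicate 2 they rose to 317 and 471, and without EA1 siRNA 2 replicate 1 to 156 and 378. Leaving out control replicate 1 gave 66 and 120, and control replicate 2 gave 80 and 126. All 326 genes kept their direction in each of these 6 fits.

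**Figure D1:**
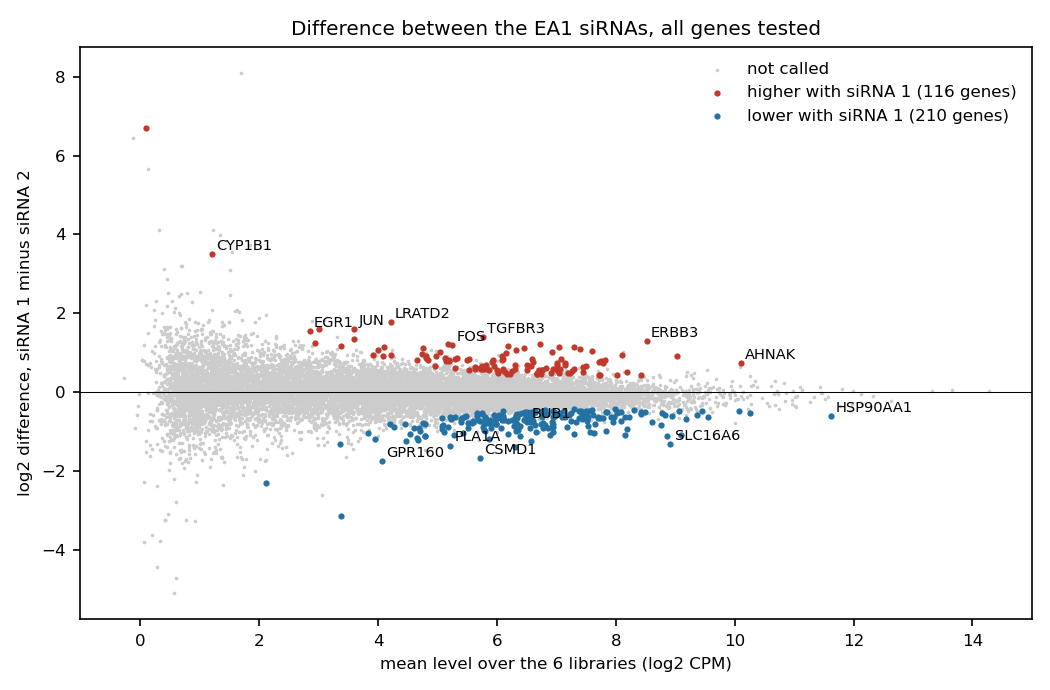
Log2 difference between the EA1 siRNAs (vertical axis, siRNA 1 minus siRNA 2) against the mean log2 CPM over the 6 libraries (horizontal axis) for the 14571 genes tested, with the 116 genes that were higher with siRNA 1 in red and the 210 that were lower in blue. Called genes lie mostly above the middle of the range of levels, and the widest differences at the left edge belong to genes with few counts.

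Most of the genes that differed had changed from control with one or both EA1 siRNAs. Against the control libraries, which both comparisons share, EA1 siRNA 1 raised 2898 genes (19.9%) and lowered 2952 (20.3%), and EA1 siRNA 2 raised 2702 (18.5%) and lowered 2650 (18.2%), by the same edgeR test. Of the 210 genes that were lower with EA1 siRNA 1, 80 fell with both siRNAs and further with EA1 siRNA 1, 69 fell with EA1 siRNA 1 and were not called with EA1 siRNA 2, 30 rose with EA1 siRNA 2 and were not called with EA1 siRNA 1, 23 rose with both, 6 were called with neither, and 2 fell with EA1 siRNA 1 and rose with EA1 siRNA 2. Of the 116 genes that were higher with EA1 siRNA 1, 35 rose with both and further with EA1 siRNA 1, 32 rose with EA1 siRNA 1 and were not called with EA1 siRNA 2, 27 fell with EA1 siRNA 2 and were not called with EA1 siRNA 1, 14 fell with both, 5 were called with neither, and 3 rose with EA1 siRNA 1 and fell with EA1 siRNA 2.

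**Figure D2:**
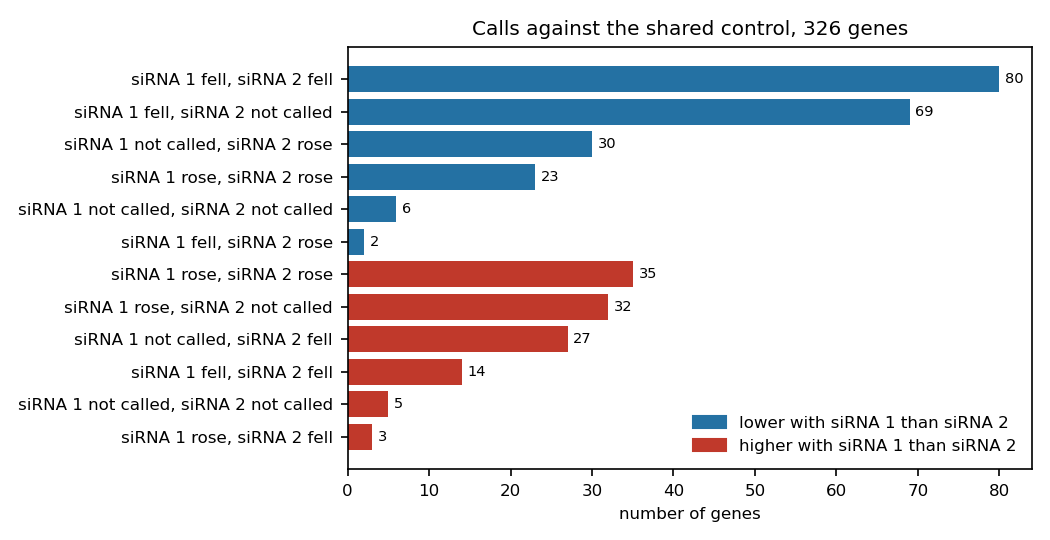
Number of genes (horizontal axis) by their call against the shared control with each siRNA, for the 210 genes lower (blue) and the 116 higher (red) with siRNA 1 than with siRNA 2. The longest bars are the 80 genes that fell with both siRNAs and the 69 that fell with siRNA 1 and were not called with siRNA 2.

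A group of genes stood near the control level with EA1 siRNA 2 and below it with EA1 siRNA 1. By a limit chosen after the data were seen, a log2 change within 0.3 of control and not called, 61 of the 210 genes lay near control with EA1 siRNA 2 and fell with EA1 siRNA 1. Only 23 of the 61 fell by at least 0.8 on the log2 scale, and the genes named here are among those. SLC16A6, a monocarboxylate transporter of the plasma membrane, stood at 637 and 567 CPM in control, 233 and 256 CPM with EA1 siRNA 1, and 551 and 658 CPM with EA1 siRNA 2. Its EA1 siRNA 2 libraries thus flanked the control values, and the log2 difference was -1.31 (standard error 0.122, adjusted p = 0.00105 in the edgeR test).

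RABL6, a Ras-like GTPase, read 123 and 117 CPM in control, 54.8 and 42.3 CPM with EA1 siRNA 1, and 123 and 108 CPM with EA1 siRNA 2. The EA1 siRNA 1 libraries lay far below the other 4, with a log2 difference of -1.24. The paraspeckle protein NONO read 758 and 729 CPM in control, 317 and 259 CPM with EA1 siRNA 1, and 622 and 598 CPM with EA1 siRNA 2. Both EA1 siRNA 2 libraries thus lay below both controls, with a log2 change of -0.29 that was not called. By the limit NONO still belonged to the same group (log2 difference -1.08). So did MPC1, a subunit of the mitochondrial pyruvate carrier (-1.01), MAGT1, a magnesium transporter and oligosaccharyltransferase subunit (-0.97), PRR14L (-1.06), and the translation factor EIF2S2, the beta subunit of eIF2 (-0.84). DENR, which recycles ribosomal subunits, and CD46, a complement regulator, read log2 changes from control of 0.09 and 0.25 with EA1 siRNA 2, neither of them called, and fell by 0.90 and 0.82 with EA1 siRNA 1 on the log2 scale. SLC16A6, RABL6, NONO and CD46 each overlap a measured gene on the opposite strand, and whether the counting used strand is not given in the sources used here. The same holds for 27 of the 116 genes that were higher and 51 of the 210 that were lower. Among genes named below, these include CREM, KIAA0319L, WDR45B, HSP90AA1 and BRCA1.

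The mirror group stood near control with EA1 siRNA 1 and below it with EA1 siRNA 2, and it held 21 of the 116 genes by the same limit. Of these, 9 fell by at least 0.8 on the log2 scale with EA1 siRNA 2. OAZ1, the antizyme that limits polyamine synthesis, read 348 and 309 CPM in control, 337 and 308 CPM with EA1 siRNA 1, and 162 and 174 CPM with EA1 siRNA 2. EIF4H, a cofactor of the translation helicase eIF4A, read 258 and 249 CPM in control, 201 and 236 CPM with EA1 siRNA 1, and 104 and 107 CPM with EA1 siRNA 2. In both the EA1 siRNA 2 libraries were the lowest of the 6 by a wide margin, and the log2 differences were 0.94 (standard error 0.107) and 1.05 (standard error 0.109), with adjusted p of 0.00194 and 0.00120 in the edgeR test. WDR45B, an autophagy protein, fell with both siRNAs, by 0.32 with EA1 siRNA 1 and by 1.48 with EA1 siRNA 2 on the log2 scale. The group also held, chosen here after their values were seen, SIRT1, a deacetylase (log2 difference 0.83), the neural cadherin CDH2 (0.93), and LASP1, which binds actin (0.77). In the opposite sense, 26 genes rose with EA1 siRNA 2 and 21 with EA1 siRNA 1 while the other siRNA left them within the limit. Of these, 3 and 7 rose by at least 0.8 on the log2 scale.

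**Figure D3:**
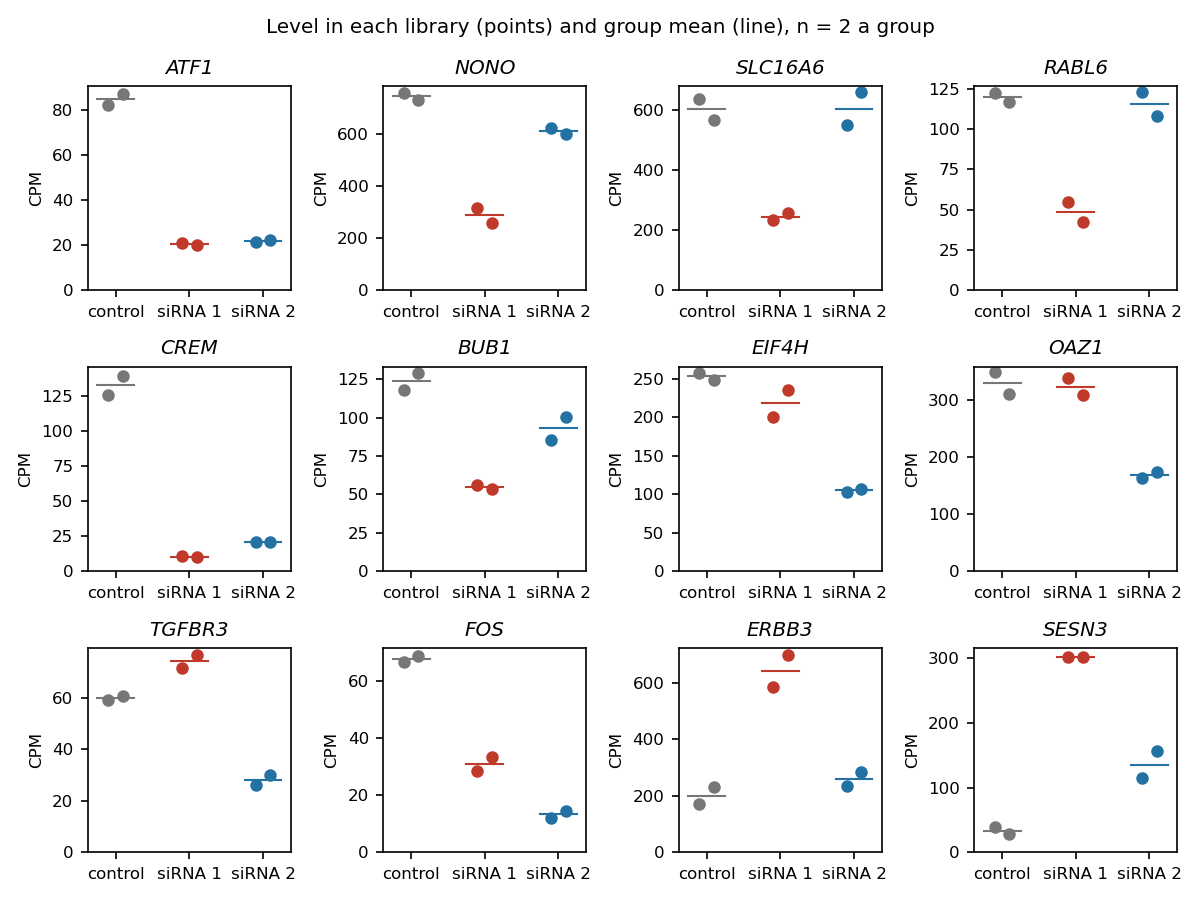
CPM in each of the 6 libraries (points, control grey, siRNA 1 red, siRNA 2 blue) and the group means (lines) for 12 genes, each vertical axis starting at 0. ATF1 is alike with both siRNAs, NONO, SLC16A6 and RABL6 are lowest with siRNA 1, EIF4H and OAZ1 are lowest with siRNA 2, and ERBB3 is highest with siRNA 1.

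Among the lists of functions, genes of mitosis differed most often. Of 107 genes tested for the mitotic spindle, kinetochore and checkpoint, 28 were lower with EA1 siRNA 1 (26.2%, against 1.44% of all genes tested). In edgeR 0 were higher, and DESeq2 also called 0 higher. The median log2 difference of the list was -0.49. In 85 of the 107 both EA1 siRNA 1 libraries lay below both EA1 siRNA 2 libraries, as they did in 23.8% of all genes tested. Against the shared control, the list had a median log2 change of -1.17 for EA1 siRNA 1 and of -0.66 for EA1 siRNA 2. With the replicate block 47 were lower. The median was -0.34 without EA1 siRNA 2 replicate 2, with 20 genes lower, and -0.61 without EA1 siRNA 2 replicate 1, with 52 lower. Without EA1 siRNA 1 replicate 1 it was -0.53 with 3 lower, without EA1 siRNA 1 replicate 2 it was -0.44 with 0 lower in edgeR, and without either control replicate 17 were lower.

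BUB1, a kinase of the spindle checkpoint, read 118 and 129 CPM in control, 56.0 and 53.5 CPM with EA1 siRNA 1, and 85.6 and 100 CPM with EA1 siRNA 2. TPX2, which activates Aurora A on the spindle, read 196 and 219 CPM in control, 100 and 83.8 CPM with EA1 siRNA 1, and 148 and 155 CPM with EA1 siRNA 2. In both genes the 3 groups did not overlap and EA1 siRNA 2 lay between EA1 siRNA 1 and control, with log2 differences of -0.77 (standard error 0.116) and -0.72 (standard error 0.116) and adjusted p of 0.00932 and 0.0109. The same order held for MYBL2, a transcription factor of late cell cycle genes (-0.88), the mitotic kinase PLK1 (-0.49), the spindle motor KIF11 (-0.63) and BIRC5, the survivin subunit of the chromosomal passenger complex (-0.62).

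Mitotic genes are known for a short promoter element, the cell cycle genes homology region (CHR), and for CCAAT boxes. In the promoter table of RefSeq (GRCh38.p14, from 250 bases before to 50 bases after the start), 24 of the 28 genes had an entry, and the 4 with the smallest p among those are shown because they are the most clearly called mitotic genes with an entry. Capitals mark TTTGAA (CHR), CCAAT, or TGACG, the core of the ATF/CREB site, on either strand. TTTGAA was the only form of the CHR searched, so a window without it is not shown to lack a CHR.
BUB1, chr2:110678014-110678313, minus strand: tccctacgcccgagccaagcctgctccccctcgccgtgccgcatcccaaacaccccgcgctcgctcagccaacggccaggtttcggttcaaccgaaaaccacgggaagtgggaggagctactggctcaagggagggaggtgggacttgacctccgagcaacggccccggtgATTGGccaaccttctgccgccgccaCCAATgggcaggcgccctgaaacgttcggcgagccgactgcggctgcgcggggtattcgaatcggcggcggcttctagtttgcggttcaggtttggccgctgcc
MYBL2, chr20:43666864-43667163, plus strand: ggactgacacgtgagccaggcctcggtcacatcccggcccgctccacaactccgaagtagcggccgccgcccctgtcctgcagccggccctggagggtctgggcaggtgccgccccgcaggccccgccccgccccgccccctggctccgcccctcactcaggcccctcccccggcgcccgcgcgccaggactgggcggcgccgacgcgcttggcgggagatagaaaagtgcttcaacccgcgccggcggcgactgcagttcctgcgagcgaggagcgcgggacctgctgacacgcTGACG
BUB1B, chr15:40160819-40161118, plus strand: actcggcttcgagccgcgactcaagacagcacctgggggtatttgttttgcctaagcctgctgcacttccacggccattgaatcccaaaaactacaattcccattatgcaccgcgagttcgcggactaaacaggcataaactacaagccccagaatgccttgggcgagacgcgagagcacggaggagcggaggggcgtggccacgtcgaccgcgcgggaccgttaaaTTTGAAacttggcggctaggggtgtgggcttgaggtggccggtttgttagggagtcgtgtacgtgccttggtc
KIF14, chr1:200620702-200621001, minus strand: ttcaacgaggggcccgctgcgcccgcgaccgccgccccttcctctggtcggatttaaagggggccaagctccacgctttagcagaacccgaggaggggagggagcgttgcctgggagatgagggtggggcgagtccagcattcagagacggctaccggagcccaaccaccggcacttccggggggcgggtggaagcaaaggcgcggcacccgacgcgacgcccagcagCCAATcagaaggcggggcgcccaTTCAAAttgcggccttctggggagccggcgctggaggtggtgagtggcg
The CHR letters were in 14 of 24 of these promoters (58.3%), in 54 of the 88 in the whole list that had an entry (61.4%), and in 924 of the 10094 promoters found for the 14571 tested genes (9.15%). CCAAT was in 16 of 24 (66.7%) and 65 of 88 (73.9%), against 3804 of 10094 (37.7%), and TGACG in 8 of 24 (33.3%) and 37 of 88, against 35.6% of all. The full ATF/CREB site TGACGTCA, which contains that core, was in 1 of 24, against 363 of the 10094. For the E2F letters TTTGGCGC and TTCCCGCC the counts were 1 and 3 of 24, against 1.14% and 5.38% of all, and the AP-1 letters TGAGTCA and the forkhead letters GTAAACA were in 0 of 24, against 2.49% and 2.04%. A match describes the letters in these windows only. Under 80% of tested genes had an entry, so these background shares hold for the promoters at hand and not for all tested genes.

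Genes of the S phase leaned the same way with few calls. Of 65 DNA replication genes 2 were lower with EA1 siRNA 1 (3.08%, against 1.44% of all genes tested) and 0 higher. The 2 were MCM6, a subunit of the replicative helicase (log2 difference -0.79), and CLSPN, a checkpoint mediator at the fork (-0.90). DESeq2 called 7 lower and 0 higher. The median of the list was -0.40, against -0.01 over all genes tested, and 61 of 65 members had a negative difference. In 44 of the 65 both EA1 siRNA 1 libraries lay below both EA1 siRNA 2 libraries, against 23.8% of all genes tested. The replicate block gave 13 lower genes. This median was -0.19 without EA1 siRNA 2 replicate 2 and -0.60 without EA1 siRNA 2 replicate 1. The same median was -0.37 and -0.44 without EA1 siRNA 1 replicate 1 and 2, and -0.41 and -0.40 without control replicate 1 and 2. The number of calls moved with the library left out, and the cause of this was not tested. Of 46 homologous recombination and Fanconi genes, BRCA1 (-0.72) and the nuclease subunit EME1 (-1.06) were lower, with a median of -0.27 that was -0.06 without EA1 siRNA 2 replicate 2. Without EA1 siRNA 2 replicate 1, 9 of these were lower, and without either EA1 siRNA 1 library 0. Of 36 nucleotide synthesis enzymes 3 were lower, the ribonucleotide reductase subunits RRM1 (-0.64) and RRM2 (-0.84) and the thymidylate synthase TYMS (-0.58), and the list median was -0.04. CDC25A, the phosphatase that activates CDK2, was the single call among 33 G1/S genes (-1.08). With the replicate block 5 repair genes and 5 G1/S genes were lower. Without EA1 siRNA 2 replicate 1 and 2, 7 and 3 G1/S genes were lower, and without either EA1 siRNA 1 library 0. Of the nucleotide enzymes 0 were lower without either EA1 siRNA 1 library.

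Of 55 histone genes 7 were lower with EA1 siRNA 1 (12.7%) and 1 was higher (1.82%), with 8 and 1 in DESeq2. The edgeR shares over all genes tested were 1.44% and 0.796%. H3C2 stood at 208 and 227 CPM in control, 45.7 and 57.1 CPM with EA1 siRNA 1, and 87.2 and 101 CPM with EA1 siRNA 2, and H2BC12 at 173 and 176, 45.5 and 59.9, and 90.1 and 107 CPM in the same order. The 3 groups were separate in both, with log2 differences of -0.88 and -0.91. Clustered histone genes are near-identical and their transcripts mostly lack poly(A) tails, so their counts are uncertain. Under the replicate block 14 were lower and 2 higher. The list median was -0.34, and -0.17 without EA1 siRNA 2 replicate 2, where 3 were lower. Without EA1 siRNA 2 replicate 1, 14 were lower, without EA1 siRNA 1 replicate 1 and 2, 0 and 2, and without either control library 4.

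Chaperones formed a smaller group. Of 27 heat shock proteins 4 were lower with EA1 siRNA 1 and 0 higher, with 5 and 0 in DESeq2, and the median was -0.12. Without EA1 siRNA 1 replicate 2, 0 were lower, without EA1 siRNA 1 replicate 1 or either control library 1, and without either EA1 siRNA 2 library 5. HSP90AA1, the inducible HSP90, rose from 2494 and 2381 CPM in control to 4368 and 4081 CPM with EA1 siRNA 2, and read 2963 and 2610 CPM with EA1 siRNA 1, where it was not called (log2 difference -0.60). HSPA4L (-0.74), HSPA4 (-0.46) and the mitochondrial chaperonin HSPD1 (-0.47) fell with EA1 siRNA 1, and HSPA4L fell with EA1 siRNA 2 too. In the blocked fit 6 of the 27 were lower. Of the proteasome list only PSMA7 was lower (-0.89), and of the cytosolic ribosomal proteins only RPL5 (-0.66), 1 of 43 and 1 of 79 genes. Over all genes tested 1.44% were lower. Both EA1 siRNA 1 libraries lay below both EA1 siRNA 2 libraries in 25 of the 43 and 7 of the 79, and above them in 5 and 9. Among all genes tested the shares were 23.8% below and 23.1% above.

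The genes that were higher with EA1 siRNA 1 included immediate early genes and AP-1 subunits, which encode transcription factors induced within minutes of growth signals. FOS read 66.5 and 68.7 CPM in control, 28.6 and 33.3 CPM with EA1 siRNA 1, and 12.1 and 14.6 CPM with EA1 siRNA 2. JUN, its partner in AP-1, read 13.6 and 10.9 CPM in control, 12.2 and 22.9 CPM with EA1 siRNA 1, and 4.27 and 7.02 CPM with EA1 siRNA 2. FOS was thus lowest with EA1 siRNA 2 and intermediate with EA1 siRNA 1, while JUN with EA1 siRNA 1 overlapped the control values. EGR1, a zinc finger factor, read 3.14 and 2.06 CPM in control, 13.5 and 13.8 CPM with EA1 siRNA 1, and 5.52 and 3.93 CPM with EA1 siRNA 2. EA1 siRNA 1 exceeded EA1 siRNA 2 by 2.30-fold for FOS, 3.04-fold for JUN and 2.91-fold for EGR1, with adjusted p of 0.00478, 0.0357 and 0.0268 in the edgeR test.

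KLF4, a zinc finger factor that fell with both siRNAs, differed by 1.18 on the log2 scale, at 51.8 and 68.8 CPM with EA1 siRNA 1 against 18.2 and 34.3 CPM with EA1 siRNA 2. These were the calls in their lists, 2 of 10 AP-1 factors and 2 of 24 immediate early genes, with 0 lower in either list in edgeR or DESeq2. Of all genes tested 0.796% were higher. DESeq2 called 1 AP-1 factor and 3 immediate early genes higher, and gave no adjusted p for JUN and EGR1. Of the 10 AP-1 factors, 5 had a positive and 5 a negative difference. The median was 0.27 for AP-1 factors and 0.51 for immediate early genes. In 17 of the 24 both EA1 siRNA 1 libraries lay above both EA1 siRNA 2 libraries, as they did in 23.1% of all genes tested. With the replicate block 9 of the 24 and 4 of the 10 were higher. The median was 0.77 without EA1 siRNA 2 replicate 2, with 8 higher and 0 lower, and 0.43 without EA1 siRNA 2 replicate 1, with 2 higher and 1 lower. Without either EA1 siRNA 1 library 0 of the 24 were higher, and without EA1 siRNA 1 replicate 2 also 0 of the 10 AP-1 factors. JUNB, a further AP-1 subunit, differed by 0.65 and was not called (adjusted p = 0.0662 in the edgeR test), but was called with the replicate block (adjusted p = 0.0299 in the edgeR test). FOSL1 was at 0.569 to 1.32 CPM in the knockdown libraries and gave no measurable difference at this depth.

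The promoters of these 4 genes (RefSeq, GRCh38.p14) are shown because cyclic AMP response elements are known in this gene class, with the same 3 sets of letters in capitals.
FOS, chr14:75278578-75278877, plus strand: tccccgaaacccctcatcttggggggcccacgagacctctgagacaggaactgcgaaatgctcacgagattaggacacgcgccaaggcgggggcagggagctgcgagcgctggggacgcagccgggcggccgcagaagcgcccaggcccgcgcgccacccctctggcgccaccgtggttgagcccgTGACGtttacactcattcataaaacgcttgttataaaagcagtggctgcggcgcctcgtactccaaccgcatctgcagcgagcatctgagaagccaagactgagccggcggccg
KLF4, chr9:107489720-107490019, minus strand: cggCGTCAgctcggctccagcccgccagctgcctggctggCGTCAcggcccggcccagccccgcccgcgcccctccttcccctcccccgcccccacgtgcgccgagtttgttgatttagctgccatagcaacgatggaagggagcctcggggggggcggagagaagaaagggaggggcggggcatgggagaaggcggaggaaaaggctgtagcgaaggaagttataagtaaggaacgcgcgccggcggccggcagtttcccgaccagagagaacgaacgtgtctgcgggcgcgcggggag
EGR1, chr5:138465229-138465528, plus strand: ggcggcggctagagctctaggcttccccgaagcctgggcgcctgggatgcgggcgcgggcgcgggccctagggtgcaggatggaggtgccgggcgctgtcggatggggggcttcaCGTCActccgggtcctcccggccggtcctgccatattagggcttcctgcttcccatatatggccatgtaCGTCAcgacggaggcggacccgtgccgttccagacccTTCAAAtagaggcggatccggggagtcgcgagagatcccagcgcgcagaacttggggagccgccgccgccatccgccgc
JUN, chr1:58783998-58784297, minus strand: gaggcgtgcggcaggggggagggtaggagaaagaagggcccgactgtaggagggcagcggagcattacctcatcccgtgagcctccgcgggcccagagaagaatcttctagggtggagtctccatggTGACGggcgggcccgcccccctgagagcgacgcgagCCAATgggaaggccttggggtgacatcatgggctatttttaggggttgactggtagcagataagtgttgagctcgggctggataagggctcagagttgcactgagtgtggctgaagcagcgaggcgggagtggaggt
Each of the 4 windows held the core TGACG at least once on one strand, and none held the full TGACGTCA, against 35.6% and 363 of the 10094 promoters. Among the promoters of all genes higher with EA1 siRNA 1, 26 of the 87 at hand held the core (29.9%).

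A pair of growth factor receptors, ERBB3 and IGF1R, were higher with EA1 siRNA 1. ERBB3, the neuregulin receptor of neural crest cells, read 170 and 230 CPM in control, 586 and 697 CPM with EA1 siRNA 1, and 235 and 286 CPM with EA1 siRNA 2. It rose with EA1 siRNA 1 and was not called with EA1 siRNA 2, and the log2 difference was 1.30 (standard error 0.154, adjusted p = 0.00246 in the edgeR test). Its counterpart IGF1R, the IGF receptor, read 149 and 137 CPM in control, 135 and 133 CPM with EA1 siRNA 1, and 81.7 and 95.9 CPM with EA1 siRNA 2, so here EA1 siRNA 2 was the one below control (log2 difference 0.59). These were 2 of 30 receptor tyrosine kinases and ligands tested (6.67%, against 0.796% of all genes tested). The list median was 0.06, and 0 were lower in edgeR or DESeq2. The replicate block gave 4 higher genes. Leaving out EA1 siRNA 2 replicate 1, 2 were higher and 2 lower, without EA1 siRNA 2 replicate 2, 5 and 1, and without either EA1 siRNA 1 library 1 was higher.

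Of 41 genes of the TGF-beta and BMP pathways 2 were higher and 0 lower in edgeR and in DESeq2, both of them receptors. The 2 were 4.88% of the list, against 0.796% of all genes tested. TGFBR2, the type II receptor, read 46.5 and 40.6 CPM in control, 144 and 154 CPM with EA1 siRNA 1, and 71.9 and 66.1 CPM with EA1 siRNA 2. TGFBR3, the co-receptor betaglycan, read 59.4 and 60.7 CPM in control, 71.5 and 76.9 CPM with EA1 siRNA 1, and 26.2 and 30.0 CPM with EA1 siRNA 2. The siRNA groups were separate in both, at log2 differences of 1.11 and 1.39, but TGFBR2 lay above control with both siRNAs while TGFBR3 was not called with EA1 siRNA 1 and fell with EA1 siRNA 2. The receptor TGFBR1 did not differ detectably (log2 difference 0.01). The list median was 0.12, and 3 were higher with the replicate block. Leaving out EA1 siRNA 2 replicate 1, 3 were higher and 1 lower, and without EA1 siRNA 2 replicate 2, 5 were higher. Other surface proteins that were higher were VLDLR, the very low density lipoprotein receptor (1.01), PLXND1, a semaphorin receptor (1.34), and CHL1, a neural adhesion molecule (1.21). DESeq2 gave no adjusted p for PLXND1. LRATD2 had the largest positive difference (1.77) among called genes with a symbol and at least 10 CPM. The largest negative one belonged to GPR160, an orphan receptor (-1.75).

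Some genes of insulin and IGF signaling were higher with EA1 siRNA 1. This list and the FOXO list after it were written after the data were seen and carry no test of the list. Of 50 genes of insulin and IGF receptor signaling tested, 8 were higher and 0 lower in edgeR and in DESeq2 over 6 libraries, with a list median of 0.08. The 8 were 16% of the list, against 0.796% of all genes tested. IRS1, the insulin receptor substrate, read 82.2 and 76.6 CPM in control, 253 and 284 CPM with EA1 siRNA 1, and 185 and 163 CPM with EA1 siRNA 2 (log2 difference 0.63). IRS2 (0.44), the adaptor GRB10 (0.68), the ubiquitin ligase CBLB (1.06), the AKT phosphatase PHLPP1 (0.50), SOCS4 (0.54), the receptor phosphatase PTPRF (0.91) and IGF1R were the others. In the blocked fit 11 were higher and 2 lower. The core kinases PIK3CA and AKT1 read 0.09 and -0.25 and were not called. Without EA1 siRNA 2 replicate 1, 8 were higher and 1 lower, and without EA1 siRNA 2 replicate 2, 10 and 1. Without EA1 siRNA 1 replicate 1, 1 was higher, and without EA1 siRNA 1 replicate 2, 0 were. Without control replicate 1 or 2, 4 and 5 were higher.

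Of 34 genes known to respond to FOXO transcription factors, which insulin signaling restrains, 8 were higher and 0 lower in edgeR, and 9 and 0 in DESeq2. The 8 were 23.5% of the list, against 0.796% of all genes tested. The median was 0.26, and 11 were higher with the replicate block. SESN3, a sestrin that restrains mTORC1, read 38.5 and 28.8 CPM in control, 302 and 302 CPM with EA1 siRNA 1, and 115 and 156 CPM with EA1 siRNA 2. It rose with both siRNAs, and the groups were separate (log2 difference 1.15, standard error 0.151). CCNG2, an atypical cyclin of resting cells (0.60), and BMF, a BH3-only apoptosis activator (0.57), also rose with both and further with EA1 siRNA 1. TXNIP, which inhibits thioredoxin, was not called with EA1 siRNA 1 and fell with EA1 siRNA 2 (0.67). This median lay between 0.26 and 0.29 in the 6 fits that left out 1 library. Those fits gave 2 to 11 higher genes, the fewest without either EA1 siRNA 1 library, 3 without either control library, 7 without EA1 siRNA 2 replicate 1 and 11 without EA1 siRNA 2 replicate 2.

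**Figure D4:**
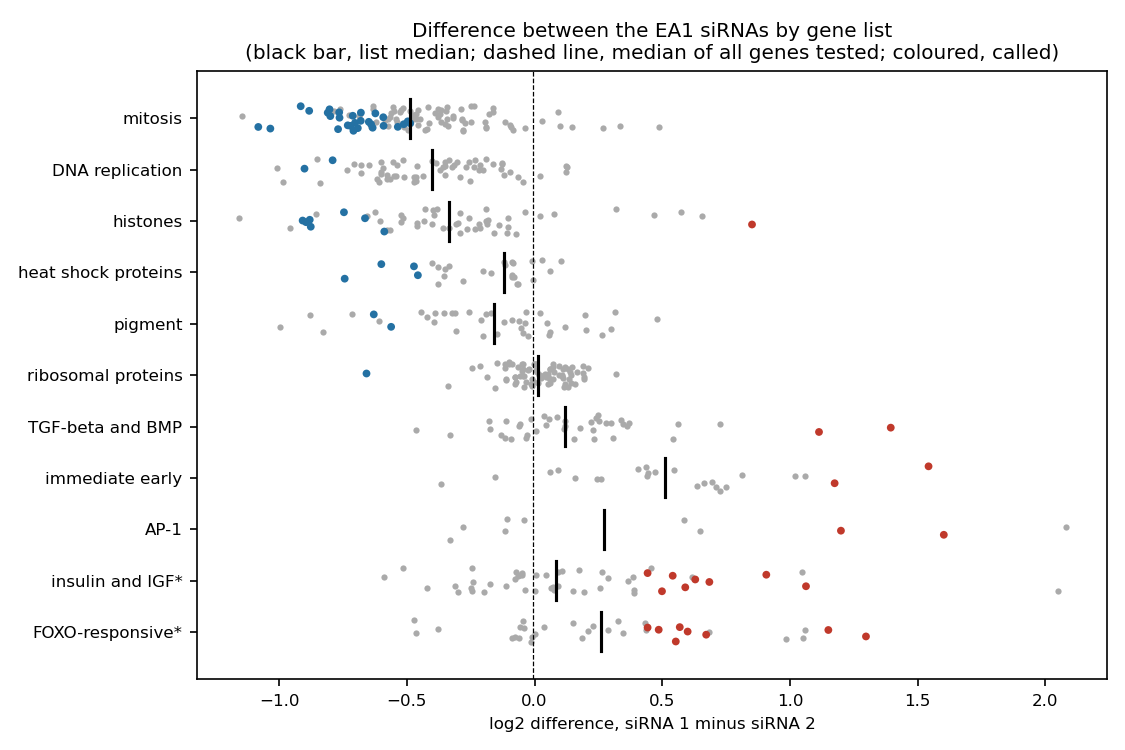
Log2 difference between the EA1 siRNAs (horizontal axis, siRNA 1 minus siRNA 2) of each gene tested in 11 lists, with called genes in red (higher with siRNA 1) or blue (lower), the list median as a black bar and the median of all genes tested as a dashed line. The mitotic list has its 28 called genes on the left, and the lists with an asterisk were written after the data were seen.

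Among ATF/CREB family members and relatives of the fusion, 2 of 23 were lower with EA1 siRNA 1 and 0 higher in edgeR and in DESeq2. The 2 were 8.70% of the list, against 1.44% of all genes tested. CREM, a paralog of ATF1 that also binds cyclic AMP response elements, read 126 and 139 CPM in control, 10.95 and 10.2 CPM with EA1 siRNA 1, and 21.005 and 20.9 CPM with EA1 siRNA 2. ATF6, a sensor of the unfolded protein response, read 127 and 132 CPM in control, 91.3 and 84.5 CPM with EA1 siRNA 1, and 142 and 153 CPM with EA1 siRNA 2. CREM was low with both and lowest with EA1 siRNA 1, whereas ATF6 fell with EA1 siRNA 1 and was not called with EA1 siRNA 2. How reads shared between CREM, ATF1 and CREB1 were counted is not given in the sources used here. NFIL3, RUNX1, RUNX2, FAM43A, TCEAL8, MITF, SOX10 and TFAP2A were not called between the siRNAs, with log2 differences from -0.39 for RUNX2 to 0.48 for FAM43A, and TCEAL8 was called with the replicate block (-0.40, adjusted p = 0.0286 in the edgeR test).

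Genes far from control with both siRNAs also differed between them. PTGES, the inducible prostaglandin E synthase, read 707 and 709 CPM in control, 33.8 and 55.5 CPM with EA1 siRNA 1, and 106 and 83.2 CPM with EA1 siRNA 2 (log2 difference -1.09). Some genes that rose on knockdown rose further with EA1 siRNA 2. PLA1A, a phosphatidylserine phospholipase, read 12.7 and 9.13 CPM in control, 28.2 and 28.5 CPM with EA1 siRNA 1, and 84.9 and 60.2 CPM with EA1 siRNA 2 (log2 difference -1.35). FAM167A (-1.17) and, among genes chosen after their values were seen, the sulfatase SULF1 (-1.10) and the tubulin TUBB4A (-0.82) also rose with both siRNAs and further with EA1 siRNA 2. Of 40 pigment and melanosome genes, RAB32, a GTPase of melanosome transport (-0.63), and ATP7A, which supplies copper to tyrosinase (-0.56), were lower with EA1 siRNA 1 and rose with both, and 0 were higher in edgeR or DESeq2. The 2 lower genes were 5% of this list, against 1.44% of all genes tested. Under the replicate block 6 were lower. The list median was -0.16, but 0.02 without EA1 siRNA 2 replicate 1, with 1 higher and 1 lower, and -0.29 without EA1 siRNA 2 replicate 2, with 11 lower. Without control replicate 2, 1 was lower, and without control replicate 1 or either EA1 siRNA 1 library 0. TFRC, the transferrin receptor, read 367 and 459 CPM in control, 268 and 358 CPM with EA1 siRNA 1, and 728 and 614 CPM with EA1 siRNA 2. It rose with EA1 siRNA 2 and was not called with EA1 siRNA 1 (log2 difference -1.10, adjusted p = 0.00612 in the edgeR test). CSMD1, a complement-related membrane protein, fell with both siRNAs and further with EA1 siRNA 1, at 90.9 and 85.5 CPM in control, 17.2 and 14.99 CPM with EA1 siRNA 1, and 48.8 and 54.3 CPM with EA1 siRNA 2 (-1.68).

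The lists not yet named had few calls, to be read beside the 0.796% higher and 1.44% lower among all genes tested. Among 29 apoptosis genes 2 were lower, BIRC5 being 1 of them, and only BMF was higher. Counts with the replicate block are to be read beside that fit's own shares, 2.22% higher and 3.64% lower among all genes tested. With the replicate block 4 apoptosis genes were lower and 2 higher. Of 75 chromatin remodeling and Polycomb genes 3 were lower, the PRC2 subunit SUZ12 (-0.66), the 5-methylcytosine dioxygenase TET3 (-0.64) and the PBAF subunit PBRM1 (-0.51), and of 62 ribosome biogenesis genes 2 were lower, the nucleolar factor TCOF1 (-0.78) and WDR43 (-0.45). Of 59 lysosome and autophagy genes, MAP1LC3B, an LC3 protein of autophagosomes, was higher (0.55) and the proton pump subunits ATP6V1A (-0.45) and ATP6V1E1 (-0.41) were lower. The p53 targets CCNG2 and TP53INP1 (0.49) were higher among 37. A single gene was called in each of 8 lists, namely NONO among 20 paraspeckle genes, the NF-kB inhibitor NFKBIE (0.99) among 23 NF-kB genes, VLDLR among 40 ATF4 and 28 hypoxia genes, ATF6 among 35 genes of the unfolded protein response, the glutathione reductase GSR (-0.58) among 40 NRF2 genes, ERBB3 among 43 neural crest genes and PLXND1 among 41 axon guidance genes. A further single call was the RNA-binding protein CELF2 (-0.50) among 81 splicing factors. In 39 of the 81 both EA1 siRNA 1 libraries lay below both EA1 siRNA 2 libraries, and in 9 above, against 23.8% and 23.1% of all genes tested. With the replicate block 6 splicing factors, 6 genes of the unfolded protein response, 4 NRF2 genes and 2 paraspeckle genes were lower, 3 lysosome genes were higher and 5 lower, 3 axon guidance genes were higher and 3 lower, 3 neural crest genes were higher and 1 lower, and 2 ATF4, 2 hypoxia, 2 p53 target, 2 proteasome, 2 ribosomal protein and 2 oxidative phosphorylation genes were lower. Without either EA1 siRNA 1 or either control library 0 lysosome genes were called, and without EA1 siRNA 2 replicate 2, 2 were higher and 7 lower. Of the chromatin genes 0 and 1 were lower without EA1 siRNA 1 replicate 2 and 1, and 5 without EA1 siRNA 2 replicate 2, with 2 higher.

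A further 10 of the 42 lists had 0 calls in edgeR without the replicate block. The block raised the shares over all genes tested to 2.22% higher and 3.64% lower. With it, edgeR called 9 collagens, laminins and integrins higher, 4 actin and SRF/YAP genes higher and 1 lower, 2 MAPK feedback genes higher and 2 lower, 1 glycolysis and TCA enzyme higher and 3 lower, 2 cholesterol and fatty acid genes higher, 1 Wnt gene higher and 1 lower, 1 clock gene higher, 1 cAMP feedback gene lower, 1 Xq22 gene lower and 0 mitochondrial transcripts. At an unadjusted p under 0.05, which 17% of all genes tested reached, there were 3 of 27 cAMP feedback genes, 10 of 24 MAPK feedback genes, 11 of 55 glycolysis and TCA cycle enzymes, 0 of 13 mitochondrial genome transcripts, 8 of 39 cholesterol and fatty acid genes, 17 of 45 collagens, laminins and integrins, 9 of 41 Wnt genes, 16 of 47 actin and SRF/YAP genes, 4 of 23 clock genes and 5 of 21 TCEAL, BEX and other Xq22 genes. DESeq2 called 3 collagens, laminins and integrins higher, 2 glycolysis and TCA enzymes lower, 1 MAPK feedback gene lower, 2 actin and SRF/YAP genes higher and 1 lower, and 0 in the other 6 lists. Of 77 oxidative phosphorylation subunits 1 was lower, ATP5F1C of the ATP synthase (-0.49). Of 52 interferon and RNA sensing genes, CMPK2 was lower (-1.01) and the helicase DDX60 higher (0.87), with 4 higher and 2 lower under the replicate block. In 25 of the 52 both EA1 siRNA 1 libraries lay above both EA1 siRNA 2 libraries, and in 9 below, against 23.1% and 23.8% of all genes tested. Of 25 genes of the RNA interference machinery itself, HSP90AA1 and LIMD1 (-0.78) were lower and 0 higher in edgeR and DESeq2. These 2 were 8% of that list, against 1.44% of all genes tested.

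**Figure D5:**
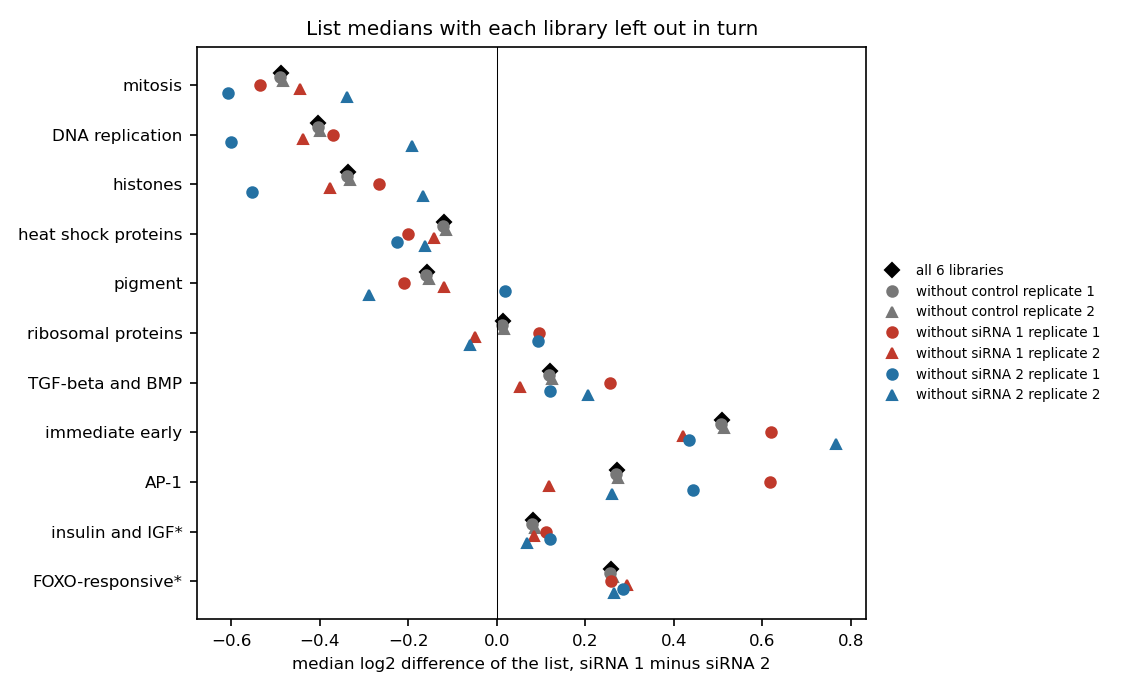
Median log2 difference of 11 lists (horizontal axis, siRNA 1 minus siRNA 2) with all 6 libraries (black) and with each library left out in turn (grey control, red siRNA 1, blue siRNA 2; circles replicate 1, triangles replicate 2). The mitotic median runs from -0.61 to -0.34, and the median of DNA replication genes from -0.60 to -0.19, the ends being set by the siRNA 2 replicates.

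The genes that were higher and those that were lower differed in base composition. Genes that were lower with EA1 siRNA 1 had a median GC content of 44.3% in their longest transcript, and those that were higher 49.5%, against 47.3% over all genes tested. The median exonic length was 5554 and 6558 bases, against 5066 bases. The median level was 6.55 and 6.16 on the log2 CPM scale, against 4.65, so well-counted genes were called more often. By position, chromosome 16 had the lowest called share of the nuclear chromosomes (6 of 667 genes tested) and chromosome 8 the highest (20 of 560, 3.57%).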

How the data were processed

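RNA of 6 SU-CCS-1 samples was sequenced from stranded mRNA libraries. The authors deposited raw counts for 18118 genes, made per the labels and methods by BWA-MEM alignment (hg38) and featureCounts 1.6.3, with no scaling. Neither the annotation nor the strand setting of the counting is given in the sources used here. GENCODE release 44 placed 18063 identifiers, and 2589 genes lacked a symbol.

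The tests ran in R 4.3.3, where edgeR 4.0.16 kept 14571 genes (filterByExpr, minimum count 10, minimum total 15), scaled by TMM, and fitted 3 groups over 6 libraries with the quasi-likelihood test. Every adjusted p is from edgeR with Benjamini-Hochberg adjustment over all genes tested unless DESeq2 1.42.0 is named. Standard errors come from the F statistic. The tests were checked on simulated counts. Alternatives were other filters, RLE factors, DESeq2, 4 libraries, thinning to 5942808 counts, a replicate block and each library left out. Same-numbered replicates, numbered in the labels, deviated together (correlations 0.130, 0.199 and 0.144 in the 3 pairs of groups). The main fit, with its p values and standard errors, did not use this pairing. Blocked values are printed beside it where they change a described count by over 1.5 times, or a call.

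The comparison and the 42 gene lists were chosen with earlier results of these data known, and 2 lists were added later. Genes were named by rule: ATF1, EWSR1 and called relatives, 12 in each direction by size at 10 CPM or more and 8 by p, up to 6 called members of each list, opposite calls, and fixed genes. Other genes are named after their values were seen, such as DENR, EIF2S2, KIF11, PLK1, TFRC, TGFBR1 and the members of the added lists. Some genes are not reported here. CHR, CCAAT and other letters were searched in RefSeq promoters whose start lay within 1000 bases of the canonical GENCODE start.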

Additional observations from a re-analysis of the deposited data

Results flagged for a closer look

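The 5 genes below were called in opposite directions from control by the EA1 siRNAs and also differed between them in the edgeR test, which is what marked them. KIAA0319L, a membrane glycoprotein known as a receptor of adeno-associated virus, read 96.2 and 88.7 CPM in control, 155 and 160 CPM with EA1 siRNA 1, and 59.8 and 74.7 CPM with EA1 siRNA 2 (log2 difference 1.22). MFAP3 read 68.7 and 64.2 CPM in control, 91.0 and 88.1 CPM with EA1 siRNA 1, and 46.6 and 48.01 CPM with EA1 siRNA 2 (0.92). HR, a histone demethylase and nuclear receptor corepressor, read 227 and 217 CPM in control, 281 and 301 CPM with EA1 siRNA 1, and 168 and 164 CPM with EA1 siRNA 2 (0.81). GSTO1, a glutathione transferase, read 156 and 129 CPM in control, 106 and 96.3 CPM with EA1 siRNA 1, and 216 and 161 CPM with EA1 siRNA 2 (-0.89). INIP, a subunit of the single-strand DNA sensor complex SOSS, read 70.5 and 63.8 CPM in control, 53.6 and 54.3 CPM with EA1 siRNA 1, and 81.0 and 87.5 CPM with EA1 siRNA 2 (-0.64). In all 5 the control libraries lay between the siRNA groups without overlap.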

How the results depend on the processing

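The replicate block raised the counts to 323 higher and 530 lower genes, with 47 mitotic genes lower. EdgeR on the 4 libraries alone gave 71 and 105, with 12 mitotic genes lower, and DESeq2 over 6 libraries 330 lower genes. Leaving out 1 library gave 13 to 317 higher, 20 to 471 lower and 0 to 52 lower mitotic genes. The mitotic counts under each setting were chosen after the data were seen. The cause of these shifts was not tested. These 3 counts stayed within 1.5 times under the filters, RLE factors, thinning and DESeq2 on 4 libraries. Of 99 named genes 87 were called, and 0 of the 87 reversed in any setting. Of the genes not called, 2 changed sign: over the fits that left out 1 library, EWSR1 ran from -0.14 to 0.0066 (positive without EA1 siRNA 2 replicate 1) and FOSL1 from -0.72 to 0.46 (positive without EA1 siRNA 1 replicate 1), at 0.38 without EA1 siRNA 2 replicate 1 and 0.23 on thinning. Of the 87 called genes, 56 and 67 lost their call without EA1 siRNA 1 replicate 1 and 2, 28 and 23 without control replicate 1 and 2, 8 and 11 without EA1 siRNA 2 replicate 1 and 2, 35 on 4 libraries with edgeR and 9 with DESeq2, and 1 on thinning. Beyond TCEAL8 and JUNB, the replicate block changed no call of a named gene. With 2 libraries a group and totals of 5942808 to 7599305, genes near the floor could not be compared.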

Other observations

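Some genes with few counts differed by the widest margins. CYP1B1, a cytochrome P450 induced through the aryl hydrocarbon receptor, had 2 and 1 counts in control, 30 and 41 in the EA1 siRNA 1 libraries and 2 and 4 in those of EA1 siRNA 2, a ratio of 11.5 between the siRNA groups from 71 and 6 counts. The unnamed gene ENSG00000266922 had 0 counts in both EA1 siRNA 2 libraries and 13 and 12 in those of EA1 siRNA 1, so it was at least 8.10-fold higher against a floor of 3 counts over the group. SLCO4A1, an organic anion transporter, and SLCO4A1-AS1, which overlaps it on the opposite strand, were both lower with EA1 siRNA 1 (log2 differences -0.76 and -0.65). These genes were chosen after their values were seen, and the reads of the overlapping pair cannot be told apart without the use of strand.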
